A study of Homo sapiens with 15 samples.

Results

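The regions described here are peaks of MPP8 that lie in protein-coding genes other than the ZNF genes, in K-562 cells without TASOR or without TASOR2. A peak was included if it overlapped the body of a RefSeq protein-coding gene by 1 bp or more and overlapped no protein-coding gene whose symbol is ZNF followed by a number. This gave 164 of the 427 peaks in the TASOR KO list and 95 of the 264 peaks in the TASOR2 KO list, 259 of 691 in all. The remaining peaks lay in ZNF genes (65 and 77) or outside protein-coding genes (198 and 92). K-562 is a blood cell line from a patient with chronic myeloid leukaemia. Both groups, K-562 TASOR KO and K-562 TASOR2 KO, were made with CRISPR/Cas9 and grown as clones from single sorted cells, and each is represented by 1 ChIP-seq library made with the same antibody to MPP8. The labels also describe transduction with an empty vector or a transgene, without saying whether these 2 libraries came from transduced cells. The other 13 samples, which include the input and MPP8 ChIP of WT and MPP8 KO cells, were not used here.

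MPP8 is a chromodomain protein that binds histone H3 methylated at lysine 9. It acts in the human silencing hub (HUSH), in which TASOR is the scaffold and PPHLN1 (periphilin) the third subunit, and which is known to silence LINE-1 elements and other long, intron-poor transcribed DNA. TASOR2 is the paralog of TASOR. The series is about the interplay of the complexes built on each paralog, and the comparison made here is of where in genes, in how long genes and in which kinds of genes MPP8 was found when one or the other scaffold was absent.

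With 1 library per genotype there is no replicate error and no p-value was computed. Intervals are exact 95% binomial intervals for shares, exact 95% intervals for odds ratios and 95% order-statistic intervals for medians. They cover counting error only, treat peaks as independent, and compare the 2 lists, not the genotypes. The depth behind a peak is unknown, since the lists hold no read totals. Peak numbers show that both lists were cut from longer ones, and the TASOR KO list holds no peak on chromosome 1, where the TASOR2 KO list has 13 of its 95 peaks in these genes. The TASOR2 KO list holds no peak of any kind on chromosomes 15, 22 and X, where the TASOR KO list has 6, 4 and 2 in these genes. Fold and −log10 q are the values that the authors' peak caller gave each peak, and they describe peaks within a list only. Peaks are ranked within a list by the deposited score, then by fold.

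The promoters below show a sequence found more often at the TASOR KO start genes than at all promoters, and were chosen to show it after matches were seen. Each is the RefSeq sequence of the 250 bases before a transcription start (GRCh38.p14, 5′ to 3′ in the direction of transcription). Capitals mark every match to the core of the interferon-stimulated response element (ISRE), taken as GAAANNGAAA on either strand. Of the 63 genes with a TASOR KO peak at the start, 16 hold a match in this window (25.4%, 15.3 to 37.9), against 2.76% of all non-ZNF promoters. The first 4 belong to genes whose start was covered by one of the strongest TASOR KO peaks, and IFIT1 and TMEM140 are 2 interferon-stimulated genes with a peak over the start. The last, OPN1SW, is the only gene in the TASOR2 KO list with a peak at its start, and its window holds no match. THADA, under the strongest of these TASOR KO peaks, holds none either, nor do FAM111A, HERC6, CENPQ and MMUT (peaks of ranks 4, 5 and 11), which are not printed.
THADA, chr2:43596039-43596288, minus strand: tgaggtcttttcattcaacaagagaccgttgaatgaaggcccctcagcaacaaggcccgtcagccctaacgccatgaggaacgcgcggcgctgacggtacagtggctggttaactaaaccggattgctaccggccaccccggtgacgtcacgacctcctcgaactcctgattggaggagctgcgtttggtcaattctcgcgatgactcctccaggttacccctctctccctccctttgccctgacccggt
DDX60, chr4:168318753-168319002, minus strand: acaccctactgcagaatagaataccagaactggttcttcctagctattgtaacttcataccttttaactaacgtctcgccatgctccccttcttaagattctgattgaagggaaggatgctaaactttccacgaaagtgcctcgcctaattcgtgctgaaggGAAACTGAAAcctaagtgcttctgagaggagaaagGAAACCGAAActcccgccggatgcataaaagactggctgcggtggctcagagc
TAP2, chr6:32838740-32838989, minus strand: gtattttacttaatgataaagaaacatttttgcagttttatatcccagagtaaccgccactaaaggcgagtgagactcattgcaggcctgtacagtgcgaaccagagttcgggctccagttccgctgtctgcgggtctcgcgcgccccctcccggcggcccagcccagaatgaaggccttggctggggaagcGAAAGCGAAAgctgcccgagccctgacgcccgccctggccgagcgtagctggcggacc
TASOR2, chr10:5684588-5684837, plus strand: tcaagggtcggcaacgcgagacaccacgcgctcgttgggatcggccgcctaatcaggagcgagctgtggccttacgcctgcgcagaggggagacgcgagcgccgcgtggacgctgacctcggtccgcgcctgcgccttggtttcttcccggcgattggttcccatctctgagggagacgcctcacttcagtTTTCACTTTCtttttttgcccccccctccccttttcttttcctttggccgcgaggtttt
IFIT1, chr10:89392373-89392622, plus strand: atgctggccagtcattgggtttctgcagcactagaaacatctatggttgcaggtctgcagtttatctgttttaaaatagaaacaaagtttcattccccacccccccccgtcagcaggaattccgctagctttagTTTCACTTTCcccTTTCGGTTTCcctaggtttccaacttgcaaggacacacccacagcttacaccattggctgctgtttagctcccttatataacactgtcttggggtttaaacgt
TMEM140, chr7:135147822-135148071, plus strand: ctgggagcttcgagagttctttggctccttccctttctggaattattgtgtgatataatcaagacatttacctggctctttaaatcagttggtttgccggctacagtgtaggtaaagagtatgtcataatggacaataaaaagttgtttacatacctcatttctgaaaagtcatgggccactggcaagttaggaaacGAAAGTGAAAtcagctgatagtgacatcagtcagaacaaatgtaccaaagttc
OPN1SW, chr7:128775795-128776044, minus strand: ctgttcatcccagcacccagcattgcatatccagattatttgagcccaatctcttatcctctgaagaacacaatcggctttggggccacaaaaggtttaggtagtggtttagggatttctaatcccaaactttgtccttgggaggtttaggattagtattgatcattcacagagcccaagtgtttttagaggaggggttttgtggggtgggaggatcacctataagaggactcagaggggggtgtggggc

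TASOR KO peaks often lay over transcription starts, and TASOR2 KO peaks almost never did. The start table used here gives a start for 15412 of the 19528 non-ZNF protein-coding genes (78.9%), and the first listed was taken for the 3958 that have more than 1. Of the peaks, 140 TASOR KO and 85 TASOR2 KO peaks lay in a gene with such a start. Within TASOR KO, 57 of these peaks (40.7%, 32.5 to 49.3), and within TASOR2 KO 1 (1.18%, 0.0298 to 6.38), came within 1 kb of the start of a gene they overlapped. The odds ratio was 57.0, with an interval of 9.36 to 2344.9. With any listed start of a gene, a choice made after the values were seen, the counts were 60 and 1. The windows within 1 kb of a start make up 1.66% of the bases of these gene bodies. In terms of genes, 63 had a TASOR KO peak and 1 had a TASOR2 KO peak at the start, which is 0.409% and 0.00649% of all 15412 starts.

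Genes outside the interferon lists showed the same order. With the peaks in 149 genes of 3 interferon and antigen presentation lists taken out, 34 of 112 TASOR KO peaks and 1 of 84 TASOR2 KO peaks lay at a start, an odds ratio of 35.8 (5.71 to 1487.8). At a q of 0.05 or less the counts were 33 of 47 and 1 of 26. The 24 TASOR KO and 10 TASOR2 KO peaks that lie only in genes without a start in the table are in none of these counts. Of them, 5 and 2 lie on chromosome 8, for which the table gives no start. The TASOR KO peak in IFIT2 and the TASOR2 KO peak in EIF2AK1, genes without a start there, were counted through LIPA and AIMP2.

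**Figure D1:**
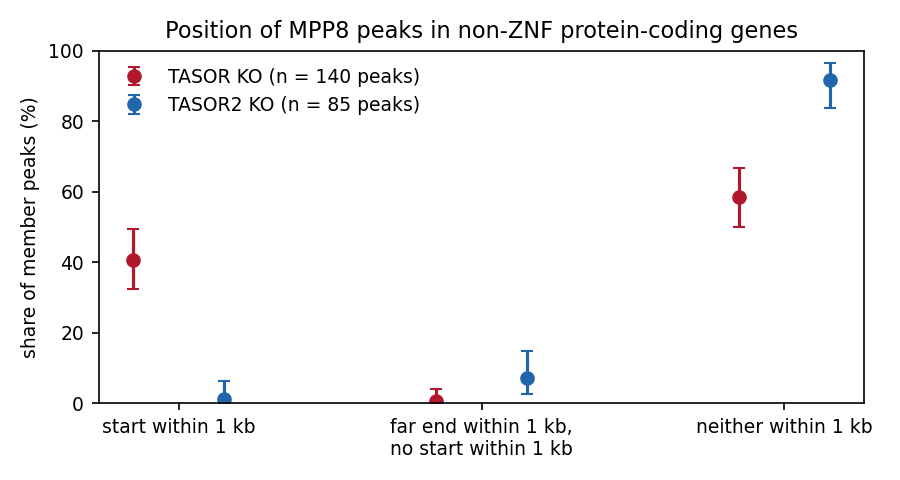
Share of peaks in non-ZNF protein-coding genes (vertical axis, %) by position, for 140 TASOR KO and 85 TASOR2 KO peaks with a start in the table; points are shares and bars exact binomial 95% intervals. Peaks at starts make up 40.7% in TASOR KO against 1.18% in TASOR2 KO, and 91.8% of TASOR2 KO peaks are near neither end.

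Counting both ends of a gene, with no need of a known strand, 68 of 164 peaks in TASOR KO (41.5%, 33.8 to 49.4) and 10 of 95 in TASOR2 KO (10.5%, 5.16 to 18.5) lay within 1 kb of an end, an odds ratio of 5.98 (2.83 to 13.9). Nearly all of the TASOR KO peaks at an end with a known strand were at the start: 1 TASOR KO peak (0.714%, 0.0181 to 3.92) lay at the far end and at no start, against 6 TASOR2 KO peaks (7.06%, 2.63 to 14.7). Wholly inside a gene lay 111 TASOR KO peaks (67.7%) and 89 TASOR2 KO peaks (93.7%), an odds ratio (TASOR2 KO to TASOR KO) of 7.04 (2.85 to 21.0). The lists did not differ beyond the interval in how many of their peaks outside ZNF genes were genic at all. That share was 45.3% (40.1 to 50.6, 164 of 362) in TASOR KO and 50.8% (43.4 to 58.2, 95 of 187) in TASOR2 KO, an odds ratio (TASOR2 KO to TASOR KO) of 1.25 (0.862 to 1.80). It was 1.54 (1.06 to 2.26) with the interferon and antigen presentation genes taken out.

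The strongest peaks show the same split. Of the 15 highest-scoring TASOR KO peaks in these genes, 11 were at a start, 2 were not and 2 had no start in the table. Of the 15 highest-scoring TASOR2 KO peaks, 0 were at a start and 13 were away from one. In TASOR KO the first was at THADA (chromosome 2, 43593273 to 43597427, fold 6.50), a gene disrupted in thyroid adenomas. It was followed by the antiviral protease gene FAM111A (fold 6.40), HERC6, an interferon-induced member of the HECT ubiquitin ligase family (chromosome 4, 88378793 to 88379616, fold 6.57), and DDX60, an antiviral helicase gene (fold 6.24). The peak at rank 11 covered the opposite-strand starts of MMUT, which encodes methylmalonyl-CoA mutase, and CENPQ, which encodes a kinetochore protein (chromosome 6, 49463070 to 49466360, fold 5.26). TAP2, a peptide transporter gene of antigen presentation (fold 4.67), DDX60L (fold 5.95), TASOR2 (fold 4.95), the ACOX3 and TRMT44 pair (fold 5.46), the zinc transporter gene SLC39A3 (fold 5.22) and RBCK1, which encodes a subunit of the linear ubiquitin ligase (fold 5.35), completed the 11. The 2 away from starts lay in SP110 and SP140, 4095 and 4195 bp from their starts (fold 5.23), and in the proprotein convertase gene PCSK6 (fold 5.07).

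In TASOR2 KO the first was in MYO1F, a myosin gene (chromosome 19, 8552868 to 8555814, fold 5.69), 21628 bp from the start. The chromatin regulator gene ANKRD11 (chromosome 16, 89280121 to 89285183, fold 5.27) was covered at 93.3% of its length from the start. The peak in ITGB1BP1, which encodes an integrin-binding protein (fold 5.46), lay at 81.2%, that in SLC38A1, an amino acid transporter gene (fold 4.85), at 88.8% and that in CPED1 (fold 4.77) at 85.2%. MKI67, the gene of the proliferation marker Ki-67, had its peak at 66.8% (chromosome 10, 128103047 to 128110021, fold 4.71). The tumour suppressor gene APC had one at 96.7% (chromosome 5, 112838367 to 112844928, fold 4.50), and RLF one at 96.9% (fold 4.59). DTL, which encodes a substrate receptor of a ubiquitin ligase, was covered at 34.0%, ASPM, which encodes a spindle pole protein, at 71.3% and the splicing regulator gene MBNL1 at 81.4%. The splicing factor genes SRRM2 and SON were covered at 64.7% and 29.9%, and TMEM70 and ATF7IP2 had no start in the table.

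The TASOR KO peaks at starts were the stronger peaks of that list and were centred near the start. Their median fold was 3.82 (3.43 to 4.21, n = 57) and 33 of them (57.9%) had a q of 0.05 or less. The 83 peaks away from starts had a median fold of 3.23 (3.14 to 3.35), and 14 of them (16.9%) reached that q. In TASOR2 KO the 84 peaks away from starts had a median fold of 4.0 (3.88 to 4.06) and 25 (29.8%) reached it. The centre of a TASOR KO peak at a start lay a median of 159 bp downstream of the start (−174 to 363), with 47 of 57 centres within 1 kb of it, and 49 peaks covered the start base itself. Downstream centres numbered 32 of 57. Of the 57, 6 peaks covered the starts of 2 or more genes on opposite strands. Among the 63 genes, 12 (19%) have an opposite-strand start within 1 kb, against 1908 of 15412 (12.4%).

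**Figure D2:**
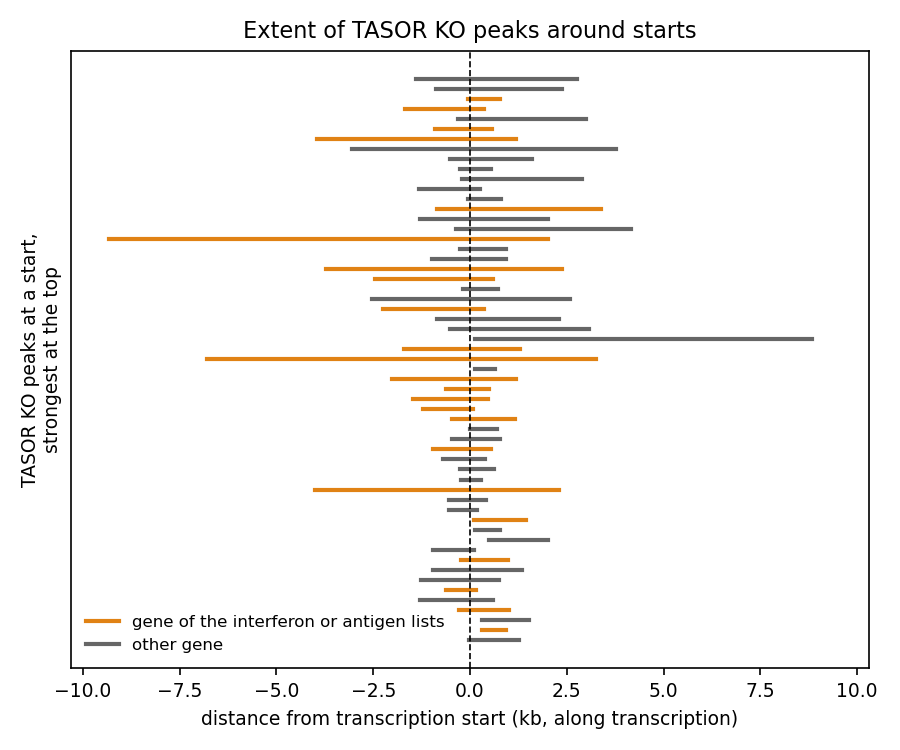
Extent of each of the 57 TASOR KO peaks at a start (1 line per peak, strongest at the top), in kb from the start along the direction of transcription, with the nearest start used where a peak has more than 1; orange marks genes of the interferon and antigen presentation lists. The peaks lie on both sides of the dashed start line, with a median centre 159 bp downstream, and both colours occur from top to bottom.

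Interferon-stimulated effector genes, whose products act against viruses inside the cell, held TASOR KO peaks in 24 of 91 genes (26.4%), where 150 of all 19528 non-ZNF protein-coding genes (0.768%) had one. The count was 12 by peak centre and 15 with a q of 0.05 or less. In TASOR2 KO 0 of the 91 had one, where 92 of all genes (0.471%) did. The gene lists were chosen with results of these data known, so these counts are descriptions. Of the 24 genes, 17 had a peak within 1 kb of the start, 4 had no start in the table and 14 of their 25 peaks had a q of 0.05 or less. Besides HERC6, DDX60 and DDX60L they include NMI, an interferon-induced gene (fold 4.54), SAMD9, an antiviral gene under a peak of 11327 bp (fold 4.39), and the apolipoprotein L gene APOL2 (fold 4.60). All 4 genes of the SP100 family, components of nuclear bodies, held a TASOR KO peak: SP110 and SP140 share 1 (fold 5.23), SP140L had fold 4.48 and SP100 fold 3.91. Of 6 apolipoprotein L genes 3 held one, as did 3 of 10 butyrophilin genes, and 0 of 13 schlafen and GBP genes did in either list. Those 3 apolipoprotein L genes lie on chromosome 22, where the TASOR2 KO list has no peak of any kind. The lists overlap, as the SP100 family and some apolipoprotein L genes are also counted among the effector genes.

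Antigen processing and presentation genes had a TASOR KO peak in 7 of 34 (20.6%, all genes 0.768%), all at the start. They had a TASOR2 KO peak in 0 (all genes 0.471%), and at that share a list of this size would hold few or none. By peak centre, and likewise with a q of 0.05 or less, the count was 3. After TAP2 came ERAP1 and ERAP2, peptide-trimming aminopeptidase genes under a shared peak (fold 3.89) at the start of ERAP2, with another at the start of ERAP1 (fold 3.35), and TAP1 and PSMB9, whose opposite-strand starts were covered by 1 peak (fold 3.19). PSMB8, which like PSMB9 encodes an immunoproteasome subunit, had fold 2.79 and B2M, the light chain of class I molecules, fold 2.91. The last 2 were among the weak peaks of the list, at ranks 300 and 412. B2M lies on chromosome 15, where the TASOR2 KO list has no peak of any kind. Among the 25 signalling and regulator genes, the transcription factor gene IRF2, which has no start in the table, had a TASOR KO peak (fold 3.93), and the kinase gene JAK2 had a TASOR2 KO peak at 82.6% of its length. The 3 lists together accounted for 33 genes and for 23 of the 57 TASOR KO peaks at starts (40.4%), and the other 34 were at genes outside them.

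The ISRE core was found in the 300 bases around the start (250 before to 50 after) of 24 of the 63 genes with a TASOR KO peak at the start (38.1%, 26.1 to 51.2), and in 496 of 15412 non-ZNF promoters (3.22%). It was in 16 of the 24 promoters of interferon and antigen presentation genes and in 8 of the other 39 (20.5%, 9.30 to 36.5). Those 8, named after their values were seen, were FAM111A, TASOR2, RBCK1, TRIM44, CASP8, CCNT2, BTN3A3 and PATL2. In PATL2 the matches lie after the start, within the promoter it shares with B2M on the opposite strand. Among genes of the 3 lists without a TASOR KO peak, 34 of 87 promoters held it (39.1%, 28.8 to 50.1). It was in 5 of 64 promoters of genes with a TASOR KO peak away from the start, and in 1 of 81 of genes with a TASOR2 KO peak away from the start. LIPA, IFIT3 and SP100 have TASOR KO peaks of both kinds and count among the 63 and the 64, and IFIT3 holds a match. In the printed windows the nearest match ends 43 bases before the start in DDX60 and TMEM140, 48 in TAP2, 49 in TASOR2 and 93 in IFIT1.

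The other TASOR KO start genes had promoters of another make-up. The ETS motif CCGGAAG was in 15 of those 39 promoters (38.5%, 23.4 to 55.4), in 0 of the 24 interferon and antigen presentation promoters (up to 14.2%) and in 13.5% of all non-ZNF promoters. A CpG ratio (observed over expected) above 0.6 was found in 35 of the 39 (89.7%), in 14 of the 24 (58.3%) and in 65.4% of all. Genes with a TASOR2 KO peak away from the start also had CpG-rich promoters, with 71 of 81 (87.7%) above that ratio. Their promoters held the GC box GGGCGG in 57 of 81 (70.4%, all 58.4%) and the NRF1 motif GCGCANGCGC in 17 (21.0%, 12.7 to 31.5, all 8.45%). In the 39 other TASOR KO start genes the GC box was in 61.5% (44.6 to 76.6) and the NRF1 motif in 12.8% (4.30 to 27.4). The ETS motif was in 17 of the 81 (21.0%, 12.7 to 31.5), and the 13.5% of all promoters lay within that interval. The cyclic AMP response element TGACGTCA was in 7 (8.64%, 3.55 to 17.0, all 2.56%). In the 39 other TASOR KO start genes that element was in 4 (10.3%, 2.87 to 24.2). Genes with a TASOR KO peak away from the start had 38 of 64 (59.4%) above the ratio. The other 5 of the 9 motifs searched were in the 63 promoters of TASOR KO start genes, interferon genes and others pooled, at 38.1% for CCAAT (all 36.0%), 7.94% for TATAAA (all 9.81%), 1.59% for the YY1 motif AAGATGGC (all 3.89%), 4.76% for the E2F motif TTTCCCGC (all 2.17%) and 6.35% for the cyclic AMP response element (all 2.56%). For each of these 5 the share over all promoters lay within the interval of the 63 pooled. For the cyclic AMP response element that share lay below the interval of the 39 alone. All were searched on both strands, and a match to one may share bases with a match to another. A match describes the letters of the window, and binding of a factor was not measured.

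Away from starts the lists also differed in how far along the gene the peaks lay. Position was measured from the annotated gene end on the side of the start, which in some genes lies upstream of the start used. In FOXP2, DLG2 and TEX9, for example, a TASOR KO peak lay upstream of that start. The centres of the 83 TASOR KO peaks lay at a median of 43.6% of the gene length (38.0 to 51.9), and those of the 84 TASOR2 KO peaks at 68.8% (55.2 to 76.3). With the gene divided into sections of 33.3% of its length, the first, middle and last section held 30, 32 and 21 TASOR KO peaks and 16, 24 and 44 TASOR2 KO peaks. The last section thus held 25.3% (16.4 to 36.0) and 52.4% (41.2 to 63.4), an odds ratio (TASOR2 KO to TASOR KO) of 3.22 (1.61 to 6.61). In genes over 100 kb the last section held 21.7% of the TASOR KO peaks (12.7 to 33.3, n = 69) and 55.3% of the TASOR2 KO peaks (38.3 to 71.4, n = 38), an odds ratio of 4.38 (1.73 to 11.5). In shorter genes it held 42.9% (17.7 to 71.1, n = 14) and 50% (34.9 to 65.1, n = 46), an odds ratio of 1.33 whose interval, 0.340 to 5.45, included 1. This measure was chosen after the positions had been seen. With peaks of a q of 0.05 or less (14 of 25 and 6 of 14) the odds ratio was 1.67 and its interval, 0.376 to 7.85, included 1.

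**Figure D3:**
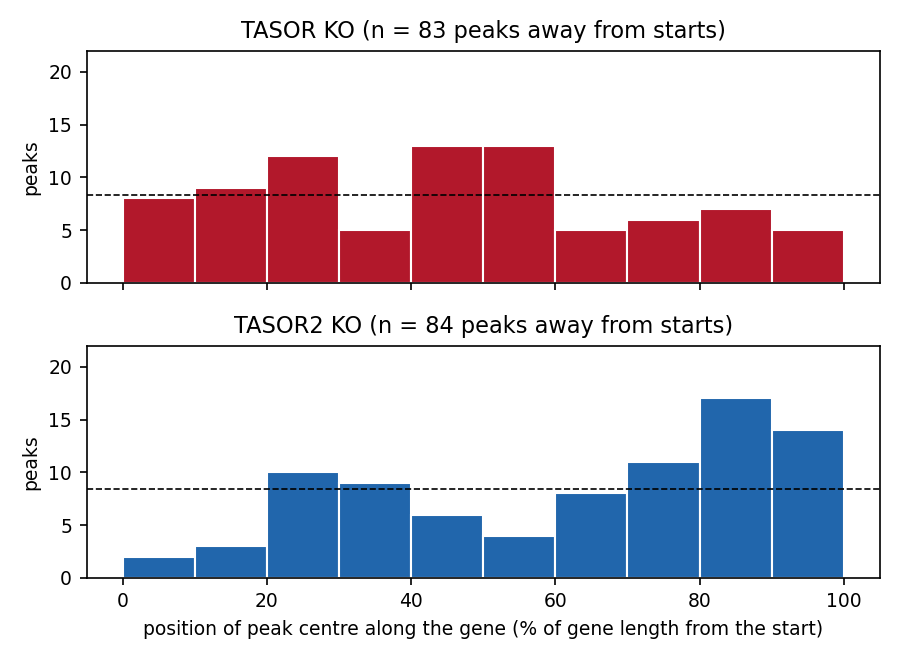
Number of peaks away from starts (vertical axis) by peak centre along the gene, for 83 TASOR KO (top) and 84 TASOR2 KO peaks (bottom). Bars are 10% of gene length, from the annotated end on the side of the start. The dashed line is the count per bar if all bars were equal. TASOR KO peaks lie mostly in the first 6 bars, and the highest bars of TASOR2 KO are the last 2.

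Among the function lists, genes known for very long coding exons held the most TASOR2 KO genes. Of 72 such genes 10 held a TASOR2 KO peak (13.9%, all genes 0.471%) and 1 a TASOR KO peak (1.39%, all genes 0.768%), and in the latter, TASOR2, the peak lay over the start. The 72 genes are long, with a median of 102 kb against 24.1 kb for all and 37 over 100 kb, and the part of length in the count was not tested. The 10 were ANKRD11 and ANKRD12, chromatin regulator genes, APC, SON, SRRM2 and MKI67, the transcription factor gene HIVEP1 (fold 4.0), BOD1L1, which encodes a protein that protects replication forks (fold 4.15), the microtubule-associated protein gene MAP1B (fold 3.77), and RESF1, which encodes a partner of SETDB1 (fold 3.60). Of their 9 peaks with a known position 6 lay in the last 33.3% of the gene, and 7 of 10 had a q of 0.05 or less. Exon positions were not used here, so whether a peak lay on the long exon was not measured. Centromere, kinesin and mitosis genes held a TASOR2 KO peak in 6 of 131 (4.58%) and a TASOR KO peak in 1 (0.763%), CENPQ. The 6 include ASPM (fold 4.47), CENPF (fold 4.09), which encodes a kinetochore protein, and the centrosome protein genes CEP83 (fold 4.10) and CEP57 (fold 3.92). ASPM and CENPF lie on chromosome 1, where the TASOR KO list has no peak, and 4 of the 6 remained with only the chromosomes that hold peaks in both lists. MKI67 is in both of these gene lists.

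Genes of HUSH and of SETDB1, the H3 lysine 9 methyltransferase it works with, were covered at 1 of 18 in TASOR KO (5.56%) and 2 of 18 in TASOR2 KO (11.1%). Over all non-ZNF protein-coding genes the shares were 0.768% and 0.471%. The TASOR KO peak was at the start of TASOR2 (chromosome 10, 5681793 to 5688613). The TASOR2 KO peaks were in ATF7IP2, a paralog of the SETDB1 cofactor ATF7IP (fold 4.46), and in RESF1. Zinc finger genes named otherwise than ZNF held TASOR2 KO peaks in 3 of 118 (2.54%), ZFP62 (fold 4.28), ZSCAN32 (fold 4.05) and ZSCAN25 (fold 3.53), and TASOR KO peaks in 0. RNA decay genes held 1 and 2 of 50, and solute carrier genes 2 and 1 of 347. Mitochondrial protein genes (202) and ribosomal protein genes (83) held 0 in both lists, and olfactory receptor genes 1 (0.256%) and 0 of 390. At the shares over all genes, lists of these sizes would hold few genes with a peak or none. Most genes with a peak were in none of the 21 lists, 101 of 150 and 66 of 92.

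**Figure D4:**
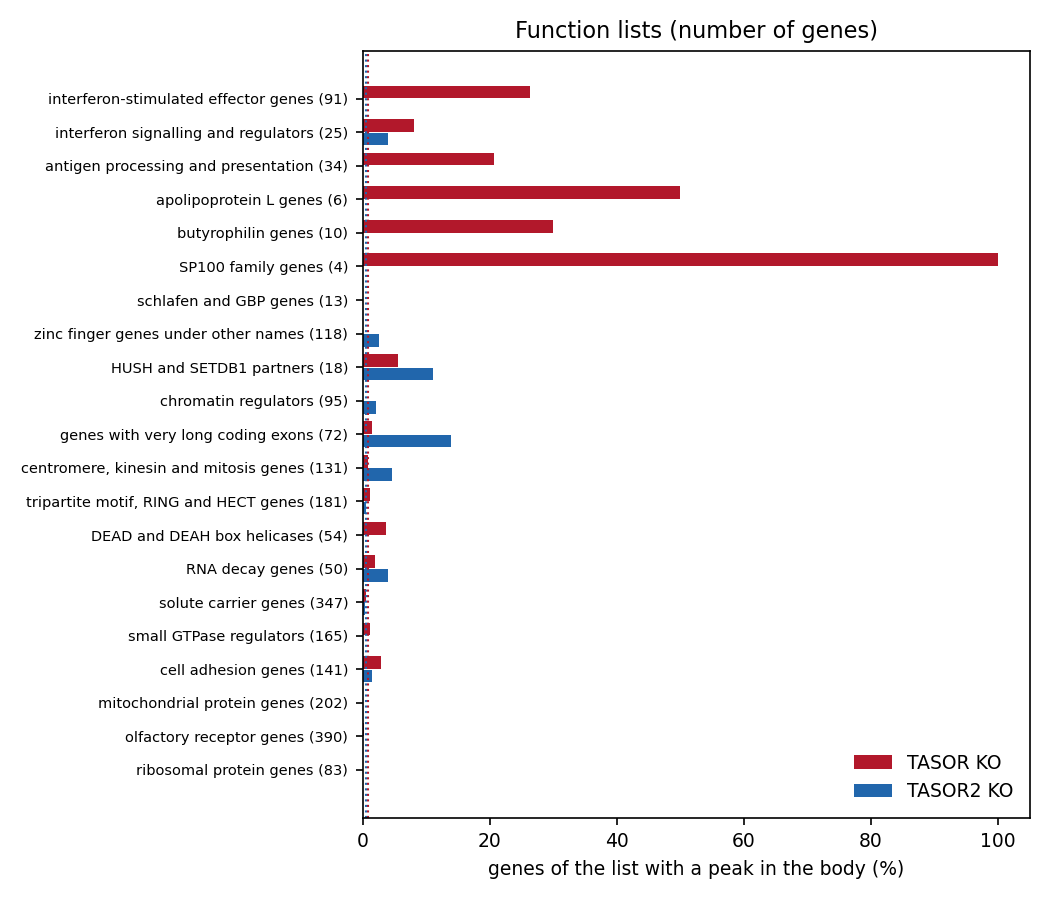
Genes of each function list with a peak in the body (horizontal axis, % of the list; list sizes in parentheses) in TASOR KO (red) and TASOR2 KO (blue); the dotted lines are the shares of all non-ZNF protein-coding genes, 0.768% and 0.471%. The longest red bars are small families (SP100, 4 genes, and apolipoprotein L, 6 genes) and the longest blue bar is that of genes with very long coding exons, at 13.9%.

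Genes with a peak were longer than other genes in both lists, and in TASOR KO their length depended on where the peak lay. The median was 86.1 kb (56.3 to 127, 150 genes) in TASOR KO and 81.4 kb (60.5 to 108, 92 genes) in TASOR2 KO, against 24.1 kb for all non-ZNF protein-coding genes, and the intervals of the lists overlapped. A longer gene offers more sequence in which a peak can lie. TASOR KO genes with a peak within 1 kb of the start had a median of 32.9 kb (23.8 to 54.2, n = 63). Those with a peak away from the start had 187 kb (137 to 252, n = 64). LIPA, IFIT3 and SP100 are in both of these sets. TASOR2 KO genes with a peak away from the start had a median of 75.3 kb (59.0 to 106, n = 81). Genes over 100 kb made up 46.7% of the genes in TASOR KO and 42.4% in TASOR2 KO, against 17.0% of all, and the odds ratio of 1.19 (0.682 to 2.08) did not differ from 1 beyond its interval.

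Peaks away from starts lay in very long genes more often in TASOR KO. Of the peaks away from starts, 37 of 83 in TASOR KO (44.6%, 33.7 to 55.9) and 7 of 84 in TASOR2 KO (8.33%, 3.42 to 16.4) lay in genes over 500 kb, an odds ratio of 8.73 (3.48 to 25.2). This limit was chosen after the lengths had been seen. These were weak peaks: with a q of 0.05 or less 2 of 14 and 2 of 25 remained, an odds ratio of 1.88 (0.122 to 29.0). The TASOR KO list runs to a q of 0.460 and the TASOR2 KO list to 0.258, so the first admits peaks of higher q. Per Mb of gene body, all pairs of a gene and a peak not found at a start were counted, 42 in TASOR KO over 500 kb. These pairs include genes without a start in the table, where the distance to a start is unknown. Among them are PTPRN2 over 500 kb and APOL1, APOL2 and APOL3 at 10 to 50 kb. TASOR KO pairs numbered 0.161 in genes over 500 kb and 0.0587 in genes of 200 to 500 kb, and TASOR2 KO pairs 0.0268 and 0.0371. In genes of 10 to 50 kb the order was the other way, 0.0823 in TASOR KO and 0.154 in TASOR2 KO, as in genes of 50 to 100 kb, 0.0498 and 0.105.

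The longest gene in both lists was CNTNAP2, which encodes a neuronal adhesion protein (2304.2 kb). It held 9 TASOR KO peaks, at 4.76% to 71.2% of its length with folds of 3.0 to 3.43, and 1 TASOR2 KO peak at 76.3% (fold 3.72). Of the 9, only those at 38.0% and 23.4% (q of 0.133 and 0.173) are within the 0.258 at which the TASOR2 KO list ends. The others have a q of 0.264 to 0.395. Without CNTNAP2 the odds ratio for genes over 500 kb was 7.71 (2.85 to 24.5). Other genes of the nervous system with several weak TASOR KO peaks were NRG3, a neuregulin gene (4 peaks, folds 2.98 to 3.31), GRM7, a glutamate receptor gene (3, folds 2.97 to 3.53), and FOXP2, a transcription factor gene (3, folds 2.95 to 3.40). PTPRN2 and PTPRM, receptor phosphatase genes, also had 3 each. DMD, the dystrophin gene (2220.2 kb), had 1 TASOR KO peak of fold 4.60 at 40.0% of its length. LIPA, a lysosomal lipase gene of 201 kb, counted 5 TASOR KO peaks. Of these, 4 also lie in IFIT1, IFIT2 or IFIT3, which the annotated body of LIPA takes in, and the other, at rank 119, covers the starts of LIPA and IFIT5. In TASOR2 KO the gene with most peaks was ADGRV1, an adhesion receptor gene of 606 kb, with 3. The shortest genes were RRS1 (1.72 kb) and UBL5 (2.20 kb) in TASOR KO, and TAF7 (2.29 kb) and OPN1SW (3.31 kb), the blue-cone opsin gene, in TASOR2 KO.

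**Figure D5:**
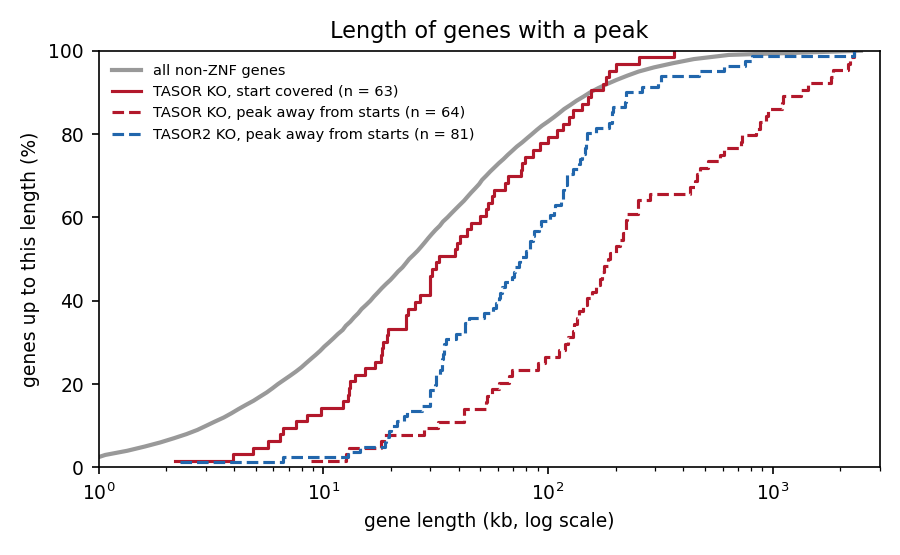
Cumulative share of genes (vertical axis, %) by gene length (horizontal axis, kb, log scale) for all non-ZNF protein-coding genes, for genes covered at the start in TASOR KO, and for genes with a peak away from the start in TASOR KO and TASOR2 KO. The dashed red line lies farthest to the right, with a median of 187 kb against 75.3 kb for the dashed blue line and 32.9 kb for the solid red line.

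Peaks of both lists were found in 5 genes, 3.33% of the genes in the TASOR KO list and 5.43% in the TASOR2 KO list. Over all non-ZNF protein-coding genes, 0.471% held a TASOR2 KO peak and 0.768% a TASOR KO peak. Genes with a peak were long in both lists, and the part of length in the overlap was not tested. In 3 of the 5 genes the TASOR KO peak lay at the start and the TASOR2 KO peaks away from it, at 26.2% to 91.5% of the gene length. XRN1, which encodes the main cytoplasmic 5′ to 3′ exonuclease, had a TASOR KO peak over the start (fold 4.17) and TASOR2 KO peaks at 86.0% and 91.5% of its length (folds 3.56 and 4.06). CENPQ had the TASOR KO peak that it shares with MMUT and a TASOR2 KO peak at 38.8% (fold 3.95). STXBP5, which encodes a syntaxin-binding protein, had a weak TASOR KO peak over the start (fold 2.93) and TASOR2 KO peaks at 26.2% and 51.2% (folds 3.51 and 3.97). In CD2AP, an adaptor protein gene, and in CNTNAP2 the peaks of both lists were away from the start, at 19.9% (TASOR KO) and 47.0% (TASOR2 KO) in CD2AP.

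The peaks were unevenly spread over chromosomes. Chromosome 7 held 33 TASOR KO (20.1%) and 13 TASOR2 KO peaks (13.7%), with 4.62% of the non-ZNF protein-coding genes. Chromosome 10 held 19 and 4, and chromosome 5 held 8 and 14. On chromosome 19, where many ZNF genes lie, 3 and 1 remained. Without chromosome 7 the counts at starts were 51 of 113 peaks in TASOR KO and 0 of 73 in TASOR2 KO, and the lower bound of the odds ratio was 14.7.

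The rule of 1 bp was narrow for few peaks. With each peak taken at the gene it overlaps most, the smallest overlaps were 109 bp at BTN3A3, 164 bp at EIF2AK2 and 179 bp at PLAAT4 in TASOR KO, and 215 bp at OPN1SW, 501 bp at TUSC3 and 610 bp at COA1 in TASOR2 KO. Just outside, TASOR KO peaks lay 232 bp from UGDH, 346 bp from RPS12 and 351 bp from ZNF544, and TASOR2 KO peaks 341 bp from ZNF254, 549 bp from FBXO5 and 612 bp from POLR3E. As a class, the peaks in these genes were about as strong as the others of their list: the median fold was 3.39 (3.28 to 3.52) against 3.49 in ZNF genes and 3.29 outside protein-coding genes in TASOR KO, and 4.0 (3.89 to 4.06) against 3.97 and 3.85 in TASOR2 KO.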

How the data were processed

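MPP8 ChIP-seq peak lists of 2 K-562 libraries, 1 per genotype, were used, and samples were grouped by their titles. The submitters' processing notes name the builds hg38 and mm9 and the tools deepTools, MACS2 and Bowtie2 (version 2.3.5.1). Per the labels' protocols, mouse chromatin was added as a spike-in, but the sources used here give neither its use in peak calling nor the control library or thresholds. The authors deposited, per peak, a score, a fold enrichment (a ratio) and a −log10 p and −log10 q, read from the column order of MACS2. Peak numbers have gaps (1612 to 13397 in TASOR KO, 1 to 1512 in TASOR2 KO), the largest q was 0.460 and 0.258, and name tags of 0.5 and 0.3 are not explained, so thresholds or selection cannot be told apart from genotype. Depth is unknown.

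Genes came from RefSeq (GRCh38.p14; 20037 protein-coding, 509 of them ZNF) and starts and promoters from a RefSeq promoter table (the first listed start of each gene). All genes a peak overlapped were counted. Position along a gene runs from the annotated end on the side of the start to the other end. No genome sequence or exon table was used here.

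The peaks, gene lists, motifs and alternatives were chosen with earlier results of these data known. Genes were named by a rule: per list, the 15 highest-scoring peaks, up to 8 genes of each function list, up to 6 genes with 2 or more peaks, the 5 longest and 5 shortest genes, genes in both lists and the 3 peaks nearest either side of the rule. One gene that the rule names is not reported here. The measures of the last 33.3% of a gene and of 500 kb were added after values were seen. The position step was checked on planted peaks. Alternatives were stronger peaks, peak centres, a common q (0.258), other windows, starts and length limits, and leaving out chromosomes or gene groups. Scripts ran in Python 3.11.15 (scipy 1.17.1, pandas 2.3.3, numpy 2.4.6, matplotlib 3.10.9).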

Additional observations from a re-analysis of the deposited data

How the results depend on the processing

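No paired analysis was possible because there is 1 library for each genotype, and for the same reason no replicate could be left out. Of 77 alternatives for the 7 odds ratios between the lists, 66 kept the direction and their side of 1. The odds ratio for peaks at starts stayed between 11.9 (starts within 5 kb) and 94.1 (common q) where both lists had such a peak, and all its intervals lay above 1. By peak centre (39 of 126 against 0 of 83) and without chromosome 7 no ratio could be given, and the lower bounds were 9.14 and 14.7. That for either gene end was lowest, 2.96, within 5 kb. The order of the lists in genes over 100 kb reversed, with intervals that include 1: TASOR KO over TASOR2 KO was 0.902 with q of 0.05 or less, 0.909 with the higher-scoring 50%, 0.947 at a common q and 0.939 with a limit of 50 kb. The share of non-ZNF peaks in a gene differed beyond its interval by peak centre (1.54, 1.07 to 2.22) and without interferon and antigen presentation genes (1.54, 1.06 to 2.26). With the higher-scoring 50% the odds ratio for the last 33.3% of the gene was 2.31 (0.820 to 6.80) and that for genes over 500 kb 4.77 (0.975 to 31.3), and with q of 0.05 or less they were 1.67 and 1.88, from fewer peaks. With any listed start they were 3.07 and 9.33, and that for peaks at starts 62.3. In genes up to 100 kb the odds ratio for the last 33.3% was 1.33 (0.340 to 5.45), from 60 peaks. The median TASOR KO gene length was 131 kb without interferon and antigen presentation genes. Interferon-stimulated effector genes with a TASOR KO peak numbered 15 with q of 0.05 or less and 12 by peak centre, antigen presentation genes 3 and 3, and mitosis genes with a TASOR2 KO peak 3 with q of 0.05 or less. The ISRE core share was 41.1% among promoters that a peak overlaps.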
